A study of Mus musculus with 12 samples.

Results

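The liver X receptors (LXRs) and target genes, among them sterol exporters, were followed in mouse livers with the adapter protein Grb14 reduced. The set was chosen by symbol and has 9 members, Nr1h3 and Nr1h2 for the receptors and Abca1, Abcg1, Abcg5, Abcg8, Lpcat3, Pltp and Smpdl3a for the targets. Each gene was read from the probe set that the platform annotation pairs with its symbol alone, and 8 of the 9 members had such a probe set, as did 19938 genes in all. Nr1h2, which encodes LXR-beta, had none and was not analysed here.

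The tested mice, called sh Grb14, received an adenovirus expressing a short hairpin RNA against Grb14 (6 livers). The mice they were set against, called sh scramble, received an adenovirus expressing a control hairpin (6 livers). All 12 were C57Bl/6J mice injected by vein at 10 weeks of age, and their livers were taken in the fed state 7 days after infection. All carried virus, livers without it were not analysed here, and the labels name neither the sex nor the hairpin sequences. Grb14 is an adapter that docks on the insulin receptor and restrains its signal, and the design asks what its loss does to expression in liver.

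LXRs are nuclear receptors that are activated by oxysterols, the oxidised forms of cholesterol, and bind DNA together with a retinoid X receptor (RXR). In liver they switch on genes that send cholesterol into bile and into high-density lipoprotein (HDL), that remodel phospholipids, and that make fatty acids through Srebf1. LXR-alpha is the form enriched in liver, while LXR-beta is found in most tissues. Macrophages also use LXRs, there mainly to export the cholesterol they take up.

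The arrays give log2 levels, so a change of 1 is a doubling in signal. A gene passed the test when its limma p, adjusted by the Benjamini-Hochberg method over all 19938 genes, was under 0.05. Grb14 itself had a lowest, median and highest log2 level of 8.02, 8.23 and 8.44 in sh Grb14 livers, against 10.08, 10.14 and 10.25 in sh scramble livers. It fell by 1.91 (SE 0.059, limma adjusted p = 7.99e-14), which left 0.267 of the sh scramble level. The difference between the groups was broad, since 65.3% of all genes passed, 25.8% as higher and 39.5% as lower in sh Grb14 livers. The median change over all genes was −0.10. Hepatocyte markers were bright in both groups, so the tissue matched its label, with Alb at 13.95 ± 0.037 in sh Grb14 livers and 13.92 ± 0.024 in sh scramble livers (SD, n = 6 each). Alb did not pass, but the other 8 of the 9 measured hepatocyte markers were lower in sh Grb14 livers, Tat most at −1.38 (SE 0.13).

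Among the 8 measured members, 4 rose (Abcg1, Pltp, Smpdl3a and Abcg5), 1 fell (Nr1h3), and Abca1, Abcg8 and Lpcat3 did not pass. With each array centred on the median of the tested genes, 3 were higher (Abcg1, Pltp and Smpdl3a) and 3 lower (Nr1h3, Abca1 and Lpcat3). Under that scaling 84.3% of all genes passed, 3859 as higher and 12943 as lower of 19938. In the values as deposited, the 5 of 8 stand beside 65.3% of all genes past the test. Their share is near the background, so the count is no result about the set. All 8 were bright, at percentiles 86.4 to 98.2 of the genes' mean levels. Of the 11890 genes above the median of all values on the arrays, 76.6% passed, 36.9% as higher and 39.8% as lower. The median change of the 8 was 0.14. In 3 of the 8 the groups did not overlap, each time with sh Grb14 livers higher, against 41.2% of all genes without overlap, 20.3% of all as higher and 20.8% as lower. In whole liver RNA, fewer cells of a type and less RNA per cell cannot be told apart. The spread of sizes within the set was wide, and the plot of levels by liver shows it.

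**Figure D1:**
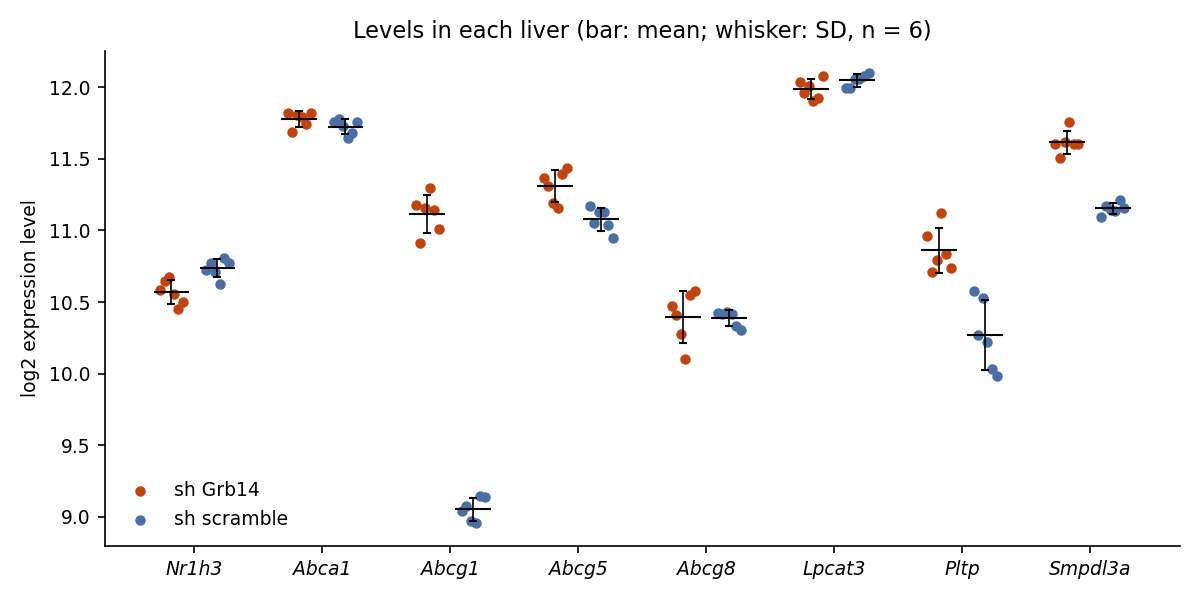
Log2 expression level (vertical axis) of the 8 measured genes in each of the 6 sh Grb14 livers (red, left) and 6 sh scramble livers (blue, right); bars are means and whiskers SD. Abcg1 lies between 10.91 and 11.30 in sh Grb14 livers and between 8.96 and 9.14 in sh scramble livers, and Pltp and Smpdl3a also separate the groups, while the points of the other 5 genes overlap.

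Nr1h3, which encodes LXR-alpha, fell slightly. Its lowest, median and highest log2 levels were 10.45, 10.57 and 10.67 in sh Grb14 livers, against 10.63, 10.75 and 10.80 in sh scramble livers. The ranges overlapped through a single sh scramble liver at 10.63, below the highest sh Grb14 livers. The change was −0.17 (SE 0.045, limma adjusted p = 0.00397; exact permutation p = 0.00649), a level 1.12-fold lower. This is a small change for these livers, at percentile 38.1 of the changes of all genes and −0.066 relative to their median.

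The transporters that carry sterols out of cells split, Abcg1 rising and Abca1 not passing the test. Abcg1 moves cellular cholesterol to HDL particles and is abundant in macrophages. Its lowest, median and highest log2 levels were 10.91, 11.15 and 11.30 in sh Grb14 livers, against 8.96, 9.06 and 9.14 in sh scramble livers. Every sh Grb14 liver was above every sh scramble liver. The rise was 2.06 (SE 0.060), or 4.17-fold (limma adjusted p = 4.00e-14), at percentile 98.6 of the changes of all genes.

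Abca1 hands cholesterol and phospholipid to lipid-poor apolipoprotein A-I, the first step in forming HDL. Its lowest, median and highest levels were 11.68, 11.80 and 11.82 in sh Grb14 livers, against 11.65, 11.74 and 11.77 in sh scramble livers, so the groups overlapped over most of their range. The change was 0.055 (SE 0.035, 95% interval −0.020 to 0.13, limma adjusted p = 0.178). Its sign and call depended on how the arrays were scaled. Quantile normalization gave 0.094 (adjusted p = 0.0274), and centring each array on the median of the tested genes gave −0.092 (adjusted p = 0.0141).

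The unequal change of these transporters was tested within each liver, where centring of the arrays cancels. Quantile normalization, which does not cancel, gave a shift of −1.95. The log2 difference Abca1 minus Abcg1 was lower in every sh Grb14 liver, between 0.50 and 0.82, than in any sh scramble liver, between 2.53 and 2.76. These differences are not ratios of transcript number, because probe sets differ in response, and only their shift between the groups is read. The shift was −2.005, with means of 0.66 ± 0.12 in sh Grb14 livers and 2.67 ± 0.081 in sh scramble livers (SD, n = 6 each; two-sided exact permutation p = 0.00216, the same after adjustment over the 2 gene pairs tested and the smallest that 12 mice in 2 groups of 6 can give).

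The sequence upstream of Abca1 is shown because this gene, alone among the 7 members listed in the RefSeq promoter table (GRCm38.p6, 250 bases before to 50 after each start), held a match to the core of the element LXR and RXR bind. That element, DR4, is a direct repeat of a nuclear receptor site with 4 bases between the copies, and its core was searched on both strands as a pair of GGTNA copies with 5 bases of any kind between them. The 250 bases before the Abca1 start, on the minus strand at chr4:53159896-53160145, are printed with the match in capitals.
Abca1: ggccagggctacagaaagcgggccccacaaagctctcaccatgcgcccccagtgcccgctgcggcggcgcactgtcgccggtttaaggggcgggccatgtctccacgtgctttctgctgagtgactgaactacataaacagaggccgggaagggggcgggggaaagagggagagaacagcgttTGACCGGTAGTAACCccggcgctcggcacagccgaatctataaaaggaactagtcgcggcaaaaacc
The match reads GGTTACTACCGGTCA on the opposite strand and spans bases 67 to 53 before the start. Of 32851 promoter windows of this length, 0.718% held such a match. No match in the windows of Nr1h3, Nr1h2, Pltp, Lpcat3, Abcg5 or Abcg8 says only that these letters are not in those windows. Windows of Abcg1 and Smpdl3a were not used here.

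Abcg5 and Abcg8 encode the partners of a heterodimer that secretes cholesterol and plant sterols from hepatocytes into bile. Abcg5 had lowest, median and highest levels of 11.16, 11.34 and 11.44 in sh Grb14 livers, against 10.95, 11.09 and 11.17 in sh scramble livers. The ranges met at their edge, where the lowest sh Grb14 liver lay just under the highest sh scramble liver. Abcg5 rose by 0.23 (SE 0.053, limma adjusted p = 0.00109), or 1.18-fold. With arrays centred on the median of the tested genes the change was 0.086 (adjusted p = 0.176), which did not pass.

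Abcg8 had lowest, median and highest levels of 10.10, 10.44 and 10.58 in sh Grb14 livers, against 10.31, 10.42 and 10.43 in sh scramble livers. The sh Grb14 livers lay on both sides of the narrow sh scramble range. The change was 0.0089 (SE 0.068, 95% interval −0.13 to 0.15, limma adjusted p = 0.912). The interval allows a change of either sign.

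Abcg5 shifted upward relative to Abcg8, and this does not depend on how arrays are centred, since centring cancels within a liver when one gene is subtracted from the other. The log2 difference Abcg5 minus Abcg8 was between 0.85 and 1.06 in sh Grb14 livers and between 0.63 and 0.75 in sh scramble livers, without overlap. The shift was 0.22, with means of 0.91 ± 0.075 in sh Grb14 livers and 0.69 ± 0.044 in sh scramble livers (SD, n = 6 each; two-sided exact permutation p = 0.00216, also after adjustment over the 2 pairs). Quantile normalization, which does not cancel, gave 0.23.

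Within each group the levels of Abcg5 and Abcg8 went together from mouse to mouse. This relation was chosen after the values were seen, so its p-values, adjusted over 2 relations only, do not cover that choice. It was computed in each group separately because the groups stand apart. Other gene pairs were not compared, and whether both genes follow a difference between whole livers was not tested. In the 6 sh Grb14 livers Pearson's r was 0.973 (exact permutation p = 0.00139, adjusted over 2 relations 0.00278) and Spearman's rho was 1.0 (exact p = 0.00278, adjusted 0.00556). In the 6 sh scramble livers r was 0.874 (exact permutation p = 0.00972, adjusted 0.00972) and rho 0.886 (exact p = 0.0333, adjusted 0.0333). Without the 2 livers farthest from the median of Abcg5, r was 0.976 in sh Grb14 livers and 0.714 in sh scramble livers (4 livers each).

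**Figure D2:**
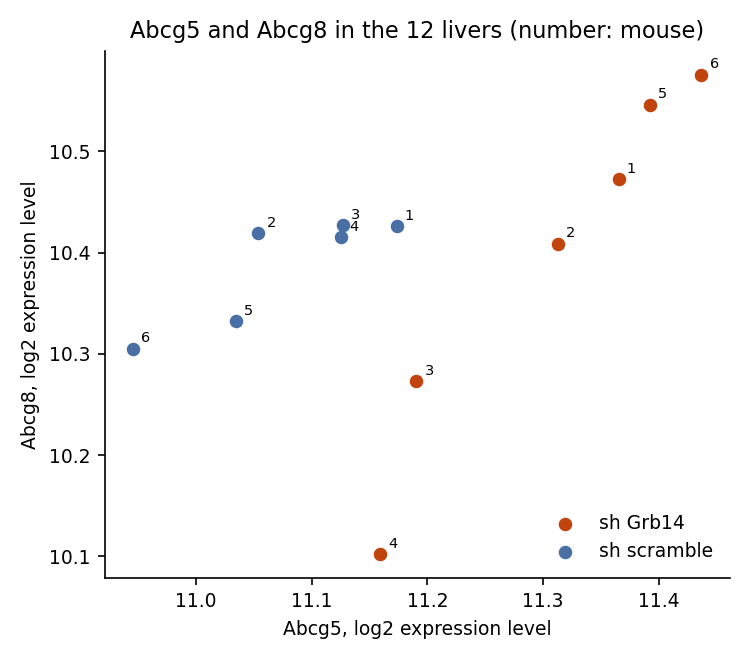
Log2 level of Abcg8 (vertical axis) against that of Abcg5 (horizontal axis) in each liver, red for sh Grb14 and blue for sh scramble. Mouse numbers beside the points count within each group and are not those of the labels. In both groups the points climb together, and at a given Abcg8 level the sh Grb14 livers lie further right, which is the shift of 0.22 in Abcg5 minus Abcg8.

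The region between these neighbouring genes is shown because they are transcribed away from each other from starts 110 bases apart, so their promoter windows share 209 bases. The 109 bases between the starts, on the plus strand in the direction of Abcg8 at chr17:84683012-84683120 (RefSeq, GRCm38.p6), are printed with matches to GATAA, the core of the site that GATA factors bind, in capitals.
Abcg5-Abcg8: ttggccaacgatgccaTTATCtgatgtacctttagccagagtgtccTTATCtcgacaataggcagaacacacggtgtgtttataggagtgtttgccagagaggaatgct
Both matches in this stretch read GATAA on the opposite strand, in the direction of Abcg5. Each gene's window of 300 bases held 3 matches counting both strands, and these are the same sites, all within the shared bases. Of the 32851 windows 0.938% held at least 3, a share to be read once for both genes. The second Abcg8 window in the table, at another listed start, held none.

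The remaining targets split as well, with Pltp and Smpdl3a higher and Lpcat3 not past the test. Pltp encodes the secreted phospholipid transfer protein, which moves phospholipid between lipoproteins. Its lowest, median and highest levels were 10.71, 10.81 and 11.12 in sh Grb14 livers, against 9.99, 10.25 and 10.58 in sh scramble livers, with no overlap. Pltp rose by 0.59 (SE 0.099, limma adjusted p = 6.51e-05), or 1.51-fold. It also varied most between mice of 1 group among the 8 genes, with an SD of 0.25 among sh scramble livers, and its within-group spread lay at percentile 94.5 of all genes.

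Smpdl3a, a secreted phosphodiesterase of the acid sphingomyelinase family, had lowest, median and highest levels of 11.51, 11.60 and 11.76 in sh Grb14 livers, against 11.09, 11.15 and 11.22 in sh scramble livers. The groups lay well apart, with little spread inside either. It rose by 0.46 (SE 0.039, limma adjusted p = 2.09e-08), or 1.38-fold. LXR control of this gene is known from human macrophages.

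Lpcat3, which places polyunsaturated fatty acids into membrane phospholipids, had lowest, median and highest levels of 11.90, 11.98 and 12.08 in sh Grb14 livers, against 11.99, 12.06 and 12.10 in sh scramble livers, and the groups overlapped. The change was −0.061 (SE 0.036, 95% interval −0.14 to 0.015, limma adjusted p = 0.144). Centred on the median of the tested genes it was −0.21 (adjusted p = 0.000155).

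**Figure D3:**
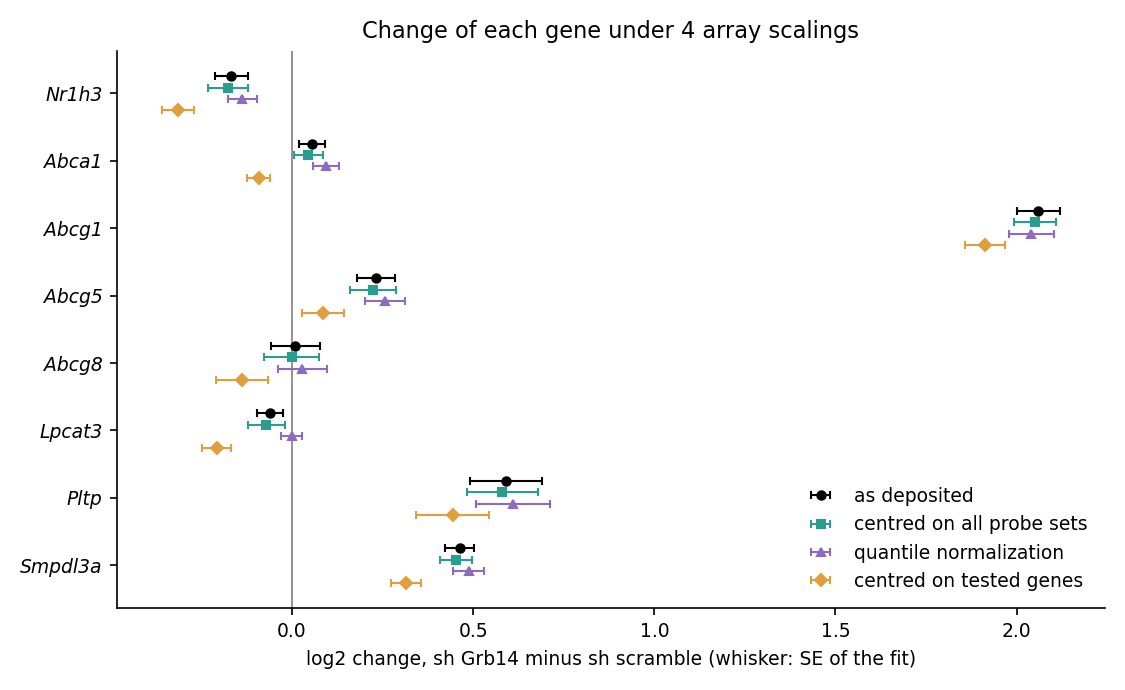
Log2 change, sh Grb14 minus sh scramble (horizontal axis), of the 8 genes under 4 scalings of the arrays, with the SE of the fit as whiskers. Abcg1, Pltp and Smpdl3a stay above 0 and Nr1h3 below 0 under each of them, while Abca1 and Abcg8 lie on both sides of 0 and Abcg5 falls to 0.086 when arrays are centred on the tested genes.

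One sh Grb14 liver, mouse 4 by the numbering within its group, stood at the edge of its group in 6 of the 8 genes, which is described after seeing the values. It had the highest level of its group for Abcg1, Pltp and Smpdl3a, the genes that rose most, and the lowest for Abcg5, Abcg8 and Lpcat3. It also had the lowest Grb14, at 8.02, and the lowest mean of the hepatocyte list, at 12.76. Its means of the Kupffer cell, T cell and cholangiocyte lists were the highest of its group, at 10.36, 8.85 and 7.52. The monocyte and recruited macrophage list was highest in mouse 3, at 9.64, and the remaining lists were also highest in mice other than mouse 4. Without mouse 4 the change of Abcg1 was 2.02, that of Pltp 0.54, that of Smpdl3a 0.43, that of Abcg5 0.26 and that of Abcg8 0.068.

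Immune cell markers differed between the groups beside these changes. All 11 markers of monocytes and recruited macrophages rose, with a mean log2 level of the list between 9.26 and 9.64 in sh Grb14 livers and between 7.45 and 7.62 in sh scramble livers. Of 10 Kupffer cell markers 6 rose and 4 did not pass, the list mean lying between 10.16 and 10.36 in sh Grb14 livers and between 9.26 and 9.60 in sh scramble livers. With each of the other scalings of the arrays 5 rose. Cd5l and Adgre1 rose by 1.79 (SE 0.079) and 1.64 (SE 0.080), while Clec4f and Timd4, which define resident Kupffer cells, did not pass at −0.063 (SE 0.098) and −0.054 (SE 0.063). Timd4 was lower at −0.20 with arrays centred on the tested genes (limma adjusted p = 0.00574). It averaged 6.57 in sh Grb14 livers and 6.62 in sh scramble livers, below the array medians of 7.06 to 7.17. The part of these markers in the rise of Abcg1, Pltp and Smpdl3a was not tested.

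Of 9 measured hepatocyte markers 8 fell and Alb did not pass, with a list mean between 12.76 and 13.01 in sh Grb14 livers and between 13.35 and 13.41 in sh scramble livers. Sinusoidal endothelial markers moved both ways, 3 higher and 7 lower of 10. Stellate cell markers did likewise, 4 higher and 4 lower of 10, from Acta2 at 2.46 (SE 0.11) to Colec11 at −1.10 (SE 0.050). Of 9 T cell markers 8 rose and 1 fell, of 7 neutrophil markers 6 rose, and of 8 cholangiocyte markers 4 rose. The counts of all marker lists stand beside 65.3% of all genes past the test, 25.8% as higher and 39.5% as lower. Among genes above the median of all values 76.6% passed, so a count alone is no result about a cell type. The arrays have no detection call, so no marker could be called absent. Cftr, of the cholangiocyte list, was on average below the lower quartile of all values. Some markers were as dim in sh scramble livers alone, set against array lower quartiles of 5.69 to 5.83 over all 12 arrays. Chil3 averaged 7.55 in sh Grb14 livers and 4.65 in sh scramble livers, and Cxcr2 averaged 7.58 in sh Grb14 livers and 5.22 in sh scramble livers. Retnlg, Tspan8 and Ly6g lay within those quartiles in sh scramble livers, at 5.73, 5.73 and 5.81.

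**Figure D4:**
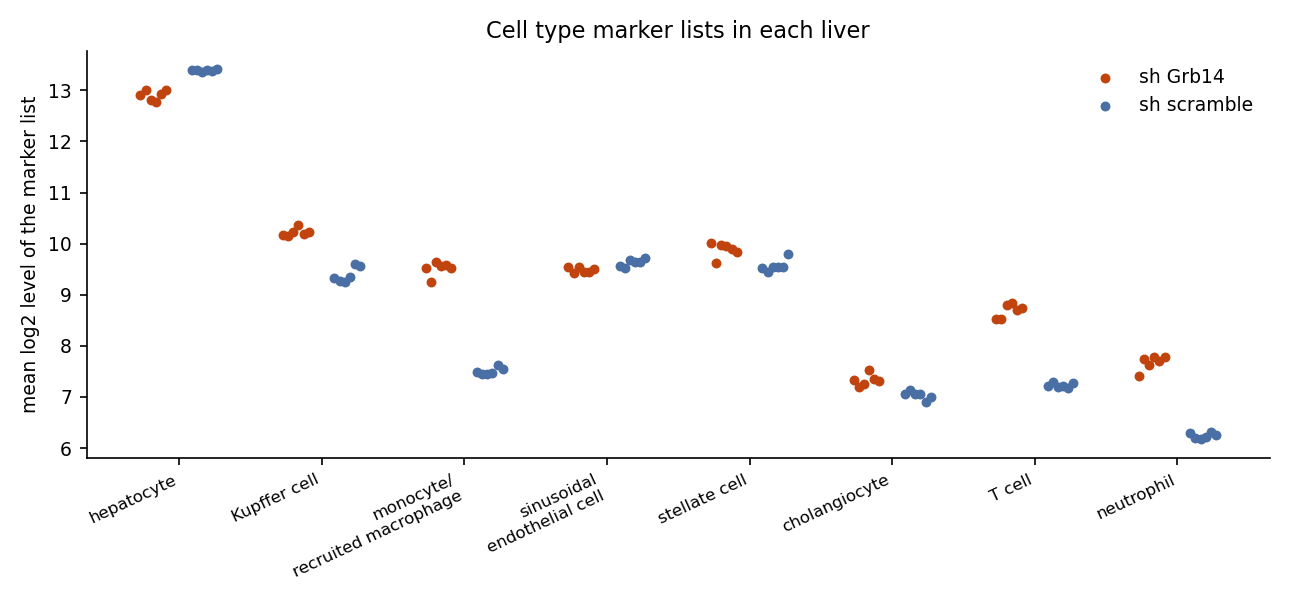
Mean log2 level (vertical axis) of 8 cell type marker lists in each sh Grb14 liver (red, left) and sh scramble liver (blue, right). The monocyte and recruited macrophage list lies between 9.26 and 9.64 in sh Grb14 livers and between 7.45 and 7.62 in sh scramble livers, while the hepatocyte list lies lower in sh Grb14 livers.

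The other genes of the LXR pathway were read from 4 lists with 44 measured genes, of which 15 rose, 23 fell and 6 did not pass. The 38 past the test stand beside 65.3% of all genes, and the lists' median change was −0.13 beside −0.10 for all genes. Of the 44, 41 were above the median of all values on the arrays, where 76.6% of genes passed and the median change was −0.031. Centred on the median of the tested genes, 12 were higher and 28 lower. Under that scaling 84.3% of all genes passed, 3859 as higher and 12943 as lower of 19938, so this count is no result about the lists.

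Among 8 partners and coregulators 2 rose and 4 fell. The 3 RXR genes, whose products pair with LXR on DNA, fell, Rxrg by 0.63 (SE 0.076), Rxra by 0.55 (SE 0.062) and Rxrb by 0.20 (SE 0.044). Rxra, the main RXR of hepatocytes, averaged 11.21 ± 0.11 in sh Grb14 livers and 11.76 ± 0.13 in sh scramble livers (SD, n = 6 each; limma adjusted p = 7.18e-07). Ncoa3, a coactivator of nuclear receptors, rose by 0.31 (SE 0.054). Nrip1, a corepressor, rose by 0.14 (SE 0.056), a call that the other 3 scalings did not keep. Ttc39b, which lowers LXR protein in mice, did not pass at −0.020 (SE 0.051), and was lower at −0.17 with arrays centred on the tested genes. The median change of this list was −0.094.

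The 16 other LXR targets had a median change of −0.24, with 6 higher, 9 lower and 1 short of the threshold. Lpl, the lipoprotein lipase, rose by 2.50 (SE 0.13), Cd5l, a protein secreted by macrophages that is also in the Kupffer cell list, rose by 1.79 (SE 0.079), and Tnfaip2 rose by 1.14 (SE 0.099). The largest falls in this list were those of genes of fat and bile acid synthesis. Thrsp, a lipogenic regulator, fell by 2.94 (SE 0.11), Cyp7a1, the rate-limiting enzyme of bile acid synthesis and an LXR target in rodents, fell by 2.42 (SE 0.21), and Fasn, the fatty acid synthase, fell by 1.30 (SE 0.13). Cyp7a1 averaged 9.68 ± 0.62 in sh Grb14 livers and 12.10 ± 0.12 in sh scramble livers (SD, n = 6 each), so the sh Grb14 livers also differed more among themselves. Mylip, the ubiquitin ligase that removes LDL receptors, rose by 0.26 (SE 0.075), but passed neither with quantile normalization nor with centring on the tested genes.

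Enzymes that make and remove oxysterols, the ligands of LXR, were also measured. The 7 genes had a median change of −0.52, with 2 higher, 4 lower and 1 short of the threshold. Ch25h, which makes 25-hydroxycholesterol, rose by 1.30 (SE 0.13), averaging 7.66 ± 0.33 in sh Grb14 livers and 6.35 ± 0.22 in sh scramble livers (SD, n = 6 each; limma adjusted p = 2.44e-07). Cyp7b1, which breaks down 25- and 27-hydroxycholesterol, fell by 2.99 (SE 0.12), and Cyp27a1, which makes 27-hydroxycholesterol, fell by 0.97 (SE 0.045). Hsd3b7, of bile acid synthesis, fell by 0.63 (SE 0.033). Cyp39a1, an oxysterol hydroxylase, rose by 0.21 (SE 0.078), but did not pass with either centring.

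In HDL formation and sterol transport 13 genes had a median change of −0.058, with 5 higher, 6 lower and 2 short of the threshold. Gramd1b, which carries cholesterol from the plasma membrane to the endoplasmic reticulum, rose by 1.89 (SE 0.054), while Gramd1c, of the same family, fell by 0.83 (SE 0.082). Npc2, which binds cholesterol in lysosomes, rose by 0.84 (SE 0.049), and Nceh1, a cholesteryl ester hydrolase, by 0.68 (SE 0.074). Apoa2, an HDL apolipoprotein, fell by 0.98 (SE 0.049) and Osbpl2, of the oxysterol-binding protein family, by 0.39 (SE 0.052). Apoa1, the acceptor of cholesterol from Abca1, fell by 0.24 (SE 0.031). Scarb1, the hepatic HDL receptor, did not pass at −0.058 (SE 0.035), and was lower at −0.21 with arrays centred on the tested genes.

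**Figure D5:**
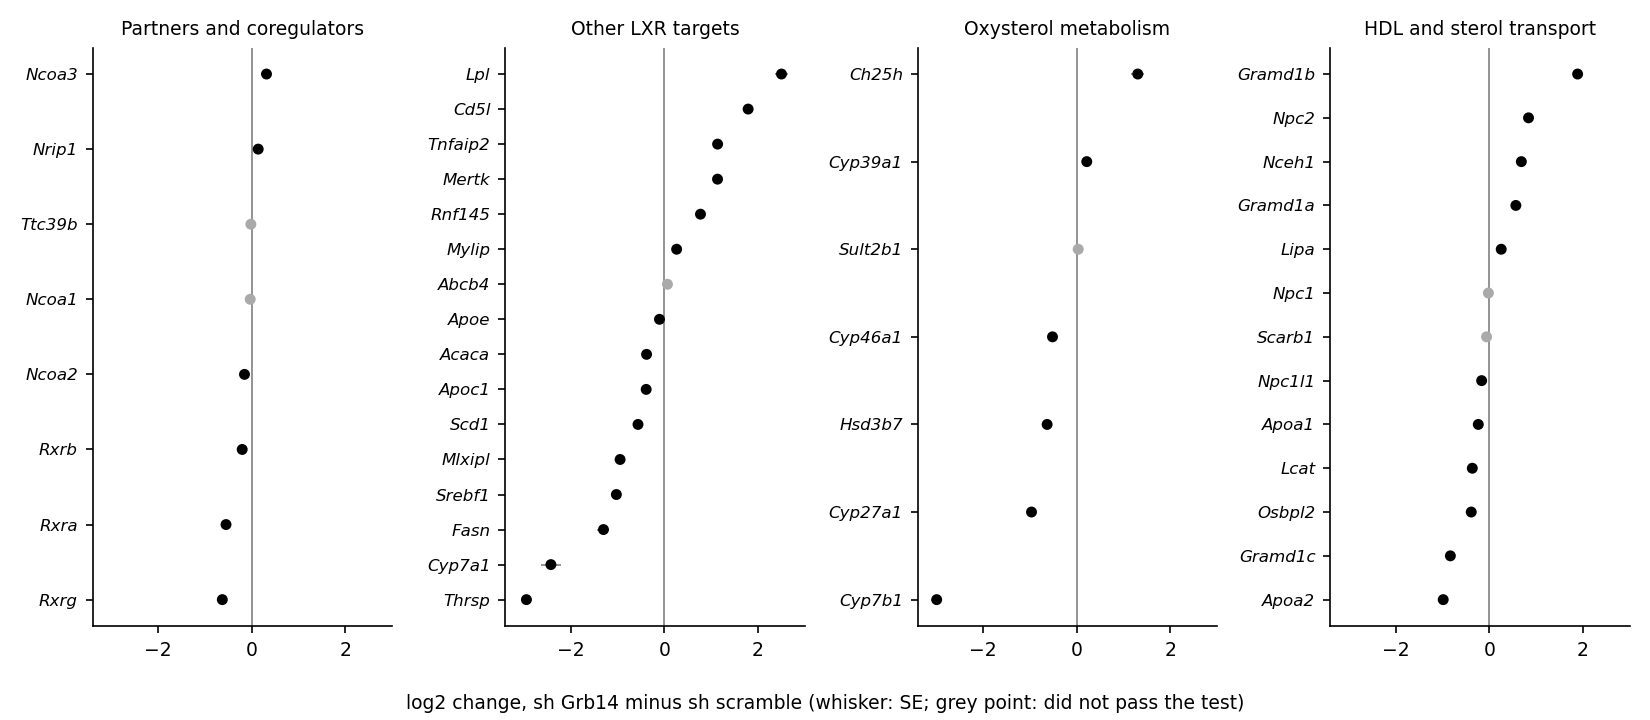
Log2 change, sh Grb14 minus sh scramble (horizontal axis), of the 44 measured genes of 4 LXR pathway lists, with the SE as whiskers and grey points for genes that did not pass. Lpl at 2.50 and Thrsp at −2.94 mark the extremes of the other LXR targets, and Ch25h at 1.30 and Cyp7b1 at −2.99 those of oxysterol metabolism.

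Genes with the pattern most like each member were found by the root mean square distance, in log2 units, between values centred on each gene's mean over the 12 arrays. For Abcg1 they were AB124611 at 0.050, Elf4 at 0.070 and Sh3bgrl3 at 0.071. For Nr1h3 they were Dhx30 at 0.042, Sdf4 at 0.045 and Dhx29 at 0.048, and for Smpdl3a Cst3 at 0.045, Litaf at 0.046 and Tmbim1 at 0.046. Pltp was nearest to Lrrc32 at 0.082, Fosb at 0.11 and Epcam at 0.12. For Abcg5 they were Slc4a4, Clec4b2 and Phka2 (0.063 to 0.070), for Abcg8 Napb, Gm32061 and Dennd11 (0.082 to 0.090), for Abca1 Ssr1, Cbx1 and Cdc37 (0.027 to 0.033), and for Lpcat3 Atf2, Cul3 and Rnf4 (0.031 to 0.032).

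No member was among the 3 nearest genes of another. The values were not scaled, so genes whose changes differed in size had to lie apart by this distance. From Abcg8, Lpcat3 ranked 319 and Abcg5 528 of the 19937 other genes, and from Abcg5, Abcg8 ranked 927. From Pltp, Smpdl3a ranked 522. From Nr1h3, the nearest member was Lpcat3, at rank 1249, and Abcg1 was far away at rank 19571. From Abcg1, the nearest member was Pltp at rank 2339.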

How the data were processed

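Liver RNA of 12 mice was profiled, 1 Affymetrix whole-transcript array per mouse, from 100 ng of Trizol-extracted RNA, per the labels' protocols. The deposited values are log2 levels for 35556 probe sets, and the submitters' processing notes name RMA and Partek, without versions. Chip description file, build and batches are not given in the sources used here. Of the probe sets, 21789 had 1 gene symbol in the platform annotation, and the 1621 with several symbols and the 12146 with none were left out. For genes with several probe sets the brightest on average was used, and each measured member had 1. The test over all 19938 genes was that of limma (version 3.58.1, R version 4.3.3; lmFit and trended eBayes, all arrays, no covariate or filter), checked on simulated data. Single values were tested by exact permutation over the mice. Named are the members, Grb14, at most 3 genes per list and direction that passed, at most 2 per marker list, unpassed list members, and the 3 genes nearest each member. Apoa1, Mylip, Srebf1, Colec11 and Ly6g, beyond these, were chosen after their values were seen. The members, lists and tests were chosen with earlier results of these data known. Alternatives were other scalings, no trend, a filter on dim genes, probe set means, array weights and leaving out each mouse. The number of arrays limits the precision. The labels do not say whether the mice were handled in batches, so p-values measure the spread between these mice only.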

Additional observations from a re-analysis of the deposited data

Results flagged for a closer look

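In 1 of the 22 sets of 6 values checked (each gene and each gene pair in each group), a mouse lay far from the others. The difference Abcg5 minus Abcg8 was 1.06 in sh Grb14 mouse 4, against 0.85 to 0.92 in the other 5 sh Grb14 livers. It was singled out because its gap to the nearest liver was 0.665 of the group's whole range, above the critical value for 6 samples. Chance gives about 1 such finding in 20 groups. Without this mouse the shift between the groups was 0.20, and the groups still did not overlap.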

How the results depend on the processing

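The counts kept within 1.5 times of those reported under all alternatives run, with 9214 to 16802 genes past the test (only genes brighter than the median of all values, against arrays centred on the tested genes), 5 or 6 of the 8 members (3 higher and 3 lower with arrays centred on the tested genes, against 4 and 1 as deposited) and 36 to 40 of the 44 pathway genes. Leaving out each mouse gave 11877 to 13497 genes. Of 241 recomputed values, 230 were taken as unchanged. For a count this meant staying within 1.5 times, whatever the split into higher and lower. For a change or a shift it meant keeping its direction and side of the threshold. Some of the 230 could not move: the 2 shifts under either centring, and the members' changes and the shifts with probe set means. Centring each array on the median of the tested genes was chosen after seeing the data. It moved the median change of all genes to −0.25 and gave 23.0% of the genes past the test as higher, against 39.5% in the values as deposited, and under it Abca1 was −0.092, Abcg5 0.086, Abcg8 −0.14 and Lpcat3 −0.21. Abcg8, which passed nowhere, also changed sign to −0.00099 with arrays centred on all probe sets, to −0.0063, −0.021 and −0.027 without sh Grb14 mouse 1, 5 or 6, and to −0.0022 and −0.0076 without sh scramble mouse 5 or 6, the range without a mouse being −0.027 to 0.068. Quantile normalization brought Abca1 past the test at 0.094. Why these calls move was not tested. Nr1h3 stayed between −0.31 and −0.14, Abcg1 between 1.91 and 2.10, Pltp between 0.44 and 0.65 and Smpdl3a between 0.32 and 0.49, past the test each time. Under each of the 4 scalings the median change of all genes was also below 0, between −0.25 and −0.095. Relative to the median of the deposited values Nr1h3 was at −0.066, and a fall of Nr1h3 beyond the general shift was not tested. Abca1 minus Abcg1 shifted by −2.03 to −1.95 and Abcg5 minus Abcg8 by 0.20 to 0.24, each with an exact permutation p of 0.00216. Averaging a gene's probe sets changed no member, since each has 1. Nr1h3 minus Nr1h2 was not run, because Nr1h2 has no probe set here. No paired analysis was possible because the labels give the groups no shared mouse numbers.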
